A study of Mus musculus with 10 samples.

Results

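The 9 genes described here belong to the Notch pathway: the receptors Notch1 and Notch2, the glycosyltransferases Lfng and Mfng, the protease Adam10, the nuclear factors Rbpj and Maml1, and the target genes Hes1 and Dtx1. They were taken as a list by symbol, under a rule that names genes without a measured value. The list was chosen with earlier results of these data known, so counts over it are a description. They are 9 of the 18194 gene symbols of the array and 9 of the 17204 that passed the filter on low values (3 or more arrays with a log2 value over 4). The level of a gene is that of the probe set assigned to its symbol alone with the highest mean over the 10 arrays. The 9 genes have 20 such probe sets of the 45101 on the array, and the other 11 are given too.

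The study compared splenic B cells of 3 groups on Affymetrix mouse expression arrays, 1 sample per array. Naive B cells (n = 4) came from unimmunized Balb/c mice. Germinal centre (GC) B cells came from mice on a Balb/c background with a deleted endogenous JH locus (JH KO) and an immunoglobulin heavy chain transgene, which was VH186.2-Tg in the B1-8 line (n = 3) and V23-Tg in the V23 line (n = 3). GC cells were sorted as λ+ PNA+ B220+ splenocytes 14 days after intraperitoneal injection of NP-CGG (50 µg), the hapten NP on chicken gamma globulin, precipitated with alum. Naive and GC cells therefore differ in immunization, in the 2 engineered alleles and in the sort, and these cannot be told apart here. The stain used to sort the naive cells is not given in the sources used here, nor is it said that replicates came from separate animals. Where they did not, the spread behind each p-value is only that between samples, which may be technical.

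Notch receptors are cell surface proteins that are cut when a ligand on a neighbouring cell binds them. ADAM10 makes the cut outside the membrane and γ-secretase the next one inside it, which frees the intracellular domain. That domain joins the DNA-binding protein RBPJ and a Mastermind coactivator such as MAML1 in the nucleus and turns on target genes. Fringe glycosyltransferases, among them LFNG and MFNG, add sugar to the receptor and change its response to Delta and Jagged ligands. In the spleen, NOTCH2 signalling with RBPJ and Delta-like 1 is required for marginal zone B cells, and DTX1 and HES1 are commonly used as its readouts in B cells.

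RBPJ binds a core motif, GTGGGAA, and the promoters of the pathway were searched for it. The search covered the 250 bases before the transcription start, on both strands (TTCCCAC is the same motif on the other strand), in RefSeq promoter windows of the mouse build GRCm38.p6. Of all 32851 windows, 5.42% held the motif. Windows were matched for 7 of the 9 genes, with 2 for Rbpj, and Lfng was the 1 gene among them with the motif. Hes1 and Mfng had no window, so their promoters were not searched. Of the 71 pathway genes listed for this work, 57 had a window and 6 held the motif, namely Lfng, Cr2, Hes5, Hey2, Psen2 and Spen. Some genes have more than 1 window, and Psen2 held the motif in 1 window but not in another. The 5.42% is a share of windows, so it is not the background of this count of genes. The windows of Lfng, Cr2 and Hes5 are shown because these 3 genes passed the test below, Lfng and Cr2 as lower in GC cells and Hes5 as higher. Capitals mark the motif, and each sequence runs 5′ to 3′ on the gene's strand towards its start. The Lfng window is chr5:140607091-140607340 on the plus strand, the Cr2 window chr1:195176720-195176969 on the minus strand and the Hes5 window chr4:154960673-154960922 on the plus strand.
Lfng: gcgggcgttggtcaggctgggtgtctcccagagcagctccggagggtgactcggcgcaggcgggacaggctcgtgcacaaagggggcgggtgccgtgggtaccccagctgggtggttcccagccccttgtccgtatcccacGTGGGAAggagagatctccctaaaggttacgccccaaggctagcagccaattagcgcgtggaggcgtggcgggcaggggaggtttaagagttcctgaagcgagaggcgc
Cr2: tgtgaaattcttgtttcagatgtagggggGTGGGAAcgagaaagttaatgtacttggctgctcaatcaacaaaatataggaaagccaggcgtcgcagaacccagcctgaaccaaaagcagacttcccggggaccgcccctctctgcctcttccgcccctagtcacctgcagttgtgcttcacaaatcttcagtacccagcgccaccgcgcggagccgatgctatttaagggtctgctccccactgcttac
Hes5: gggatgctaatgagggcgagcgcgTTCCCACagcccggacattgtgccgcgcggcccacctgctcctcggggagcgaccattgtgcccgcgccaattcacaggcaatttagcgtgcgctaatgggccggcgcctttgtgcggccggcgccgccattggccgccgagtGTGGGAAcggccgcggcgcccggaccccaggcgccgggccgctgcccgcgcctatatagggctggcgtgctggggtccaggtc
The motif begins 109 bases before the start in Lfng and 221 bases before it in Cr2. Hes5 holds it 2 times, 226 bases before the start on the opposite strand and 83 bases before it on the gene's strand. A match describes the letters of the window and does not show binding.

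Array medians lay between 6.70 and 7.04 on the log2 scale, and the mean correlation of each array with the others of its group was 0.952 to 0.958. All values below are deposited log2 signals, group levels are means ± SD, and differences are limma estimates ± SE, where a difference of 1 is 2-fold. P-values are limma's, adjusted by Benjamini-Hochberg over all 17204 genes within a comparison, and a gene is called below 0.05. Precision depends on the level, since the residual SD had a median of 0.889 among genes whose mean was below 6 and 0.118 among those above 10. Naive replicates 2 and 4 stand apart on the mean log2 level of GC B cell markers, at 10.36 and 9.71 against at most 9.06 in the other naive replicates. On the summed unlogged signal of these markers replicate 2 was highest, at 16016, while replicate 4, at 14502, lay close to replicate 3, at 14244. Naive replicate 4 has the highest neutrophil, macrophage and T cell marker sums of its group. Results are given without naive replicates 2 and 4 together where their call changes.

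On the reported probe sets, all 9 genes had lower means in GC cells than in naive cells in both lines. On each of the 6 GC arrays each gene lay below all 4 naive arrays. In GC B1-8 against naive, 7 of the 9 genes were called lower and none higher, where 17.3% of all genes were called lower and 16.4% higher. In GC V23 against naive, 9 of 9 were called lower, where 19.7% of all genes were called lower and 18.2% higher. The median log2 difference of the 9 genes was −0.84 in B1-8 and −0.88 in V23, beside 0.05 and 0.06 over all genes tested. Hes1, Notch2, Lfng and Dtx1 were called and lower by at least 2-fold in both lines, a size and call met by 6.90% of all genes in B1-8 and 8.99% in V23. All 9 differences stayed below 0 with quantile normalization and with arrays centred on their medians, but with the mean of a gene's probe sets Maml1 turned in both lines and Adam10 in B1-8. The mean of a gene's probe sets left 3 of the 9 genes called lower in B1-8 and 6 in V23. With it, 15% and 18.3% of all genes were called lower. Centring left 6 of the 9 genes called lower in B1-8 and 7 in V23. It took the share of lower among all called genes in V23 from 52.0% to 39.9%. Both comparisons share the same 4 naive arrays, so the lines are not independent of each other here. Non-overlap below naive was met by 21.1% of all genes in B1-8, 22.6% in V23 and 18.5% over the 6 GC arrays together. In these bulk samples, fewer cells of a type and less RNA per cell cannot be told apart.

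**Figure D1:**
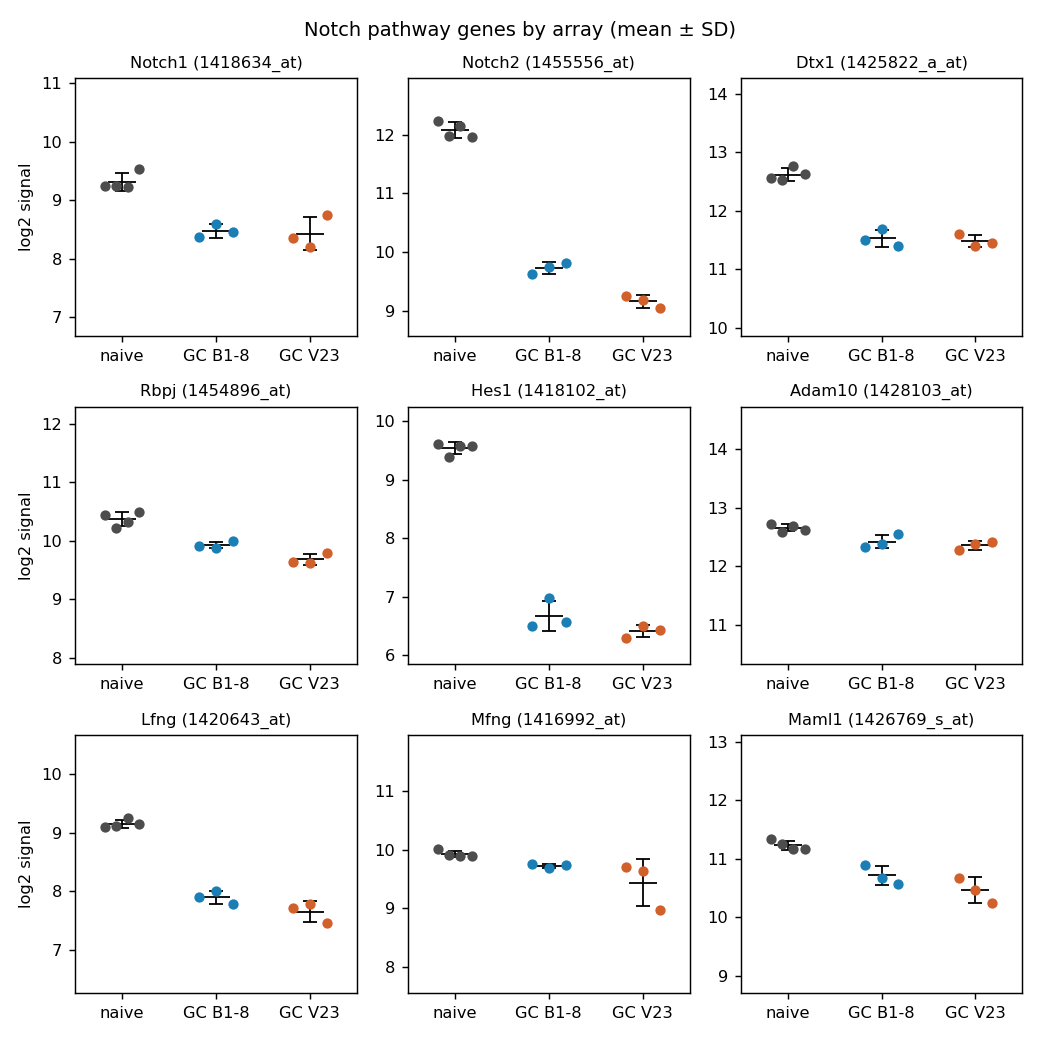
Log2 signal of the 9 Notch pathway genes on each of the 10 arrays, 1 panel per gene, with naive, GC B1-8 and GC V23 arrays side by side; points are arrays, lines are group means and every panel spans the same number of log2 units. The naive arrays lie above all GC arrays in each panel, with a gap of 2.42 for Hes1, 2.15 for Notch2 and 0.04 for Adam10.

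The receptors differed in size of change. Notch2, the receptor required for marginal zone B cells, read 12.25, 11.98, 12.16 and 11.96 on the naive arrays, 9.62, 9.75 and 9.81 on the B1-8 arrays and 9.25, 9.17 and 9.04 on the V23 arrays (probe set 1455556_at). The groups formed 3 separate bands with V23 lowest. Notch2 fell by 2.36 ± 0.11 in B1-8 (5.13-fold, adjusted p = 4.36e-06) and fell by 2.93 ± 0.11 in V23 (7.64-fold, adjusted p = 1.37e-06). Notch1, the receptor best known for its role in T cell development, read 9.24, 9.25, 9.23 and 9.53 on the naive arrays, 8.37, 8.60 and 8.46 on the B1-8 arrays and 8.35, 8.20 and 8.75 on the V23 arrays (1418634_at). Naive replicate 4 was the highest array, and the GC lines overlapped each other. Notch1 fell by 0.84 ± 0.15 in B1-8 (adjusted p = 0.0024) and by 0.88 ± 0.15 in V23 (adjusted p = 0.0016), and without naive replicate 4 the differences were −0.77 and −0.81.

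The other probe sets of the receptors did not show the same change. A second Notch2 probe set (1451889_at) read 6.99, 5.25, 6.41 and 5.38 in naive cells, 5.64, 7.10 and 5.94 in B1-8 and 6.88, 7.03 and 7.40 in V23. Its arrays overlap between naive and GC and its mean was higher in GC cells, by 0.66 ± 0.41 (adjusted p = 0.26, over 41235 probe sets). It lies among low signals with a large spread, while the reported Notch2 set lies among the high ones. With the mean of the probe sets of a gene, Notch2 differed by −1.07 in B1-8 and −0.92 in V23 (adjusted p 0.019 and 0.031), and Notch1 by −0.50 and −0.73 (adjusted p 0.060 and 0.010). The second Notch1 set (1418633_at) had a difference of −0.37 ± 0.17 between the GC mean and naive (adjusted p = 0.13).

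The fringe enzymes divided by size. Lunatic fringe, Lfng, read 9.10, 9.12, 9.25 and 9.15 in naive cells, 7.90, 8.01 and 7.78 in B1-8 and 7.72, 7.79 and 7.46 in V23 (1420643_at). It fell by 1.26 ± 0.11 in B1-8 (2.39-fold, adjusted p = 6.2e-05) and by 1.50 ± 0.11 in V23 (2.83-fold, adjusted p = 2.0e-05). Its promoter window with the motif is printed above. The second Lfng set did not pass the filter on low values, reading 1.99 to 3.66, and the mean of both sets gave −0.57 for Lfng in B1-8 (adjusted p = 0.086) and −0.73 in V23 (adjusted p = 0.032). Manic fringe, Mfng, read 10.01, 9.91, 9.90 and 9.90 in naive cells, 9.76, 9.68 and 9.73 in B1-8 and 9.70, 9.64 and 8.97 in V23 (1416992_at, its only probe set). The first 2 V23 arrays lay close to B1-8 and the last one was the lowest of all 10 arrays.

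Mfng differed from naive by −0.21 ± 0.17 in B1-8 (adjusted p = 0.39), which did not pass, and by −0.49 ± 0.17 in V23 (adjusted p = 0.045), which did. Without V23 replicate 3 the V23 difference of Mfng was −0.26 with an adjusted p of 0.055. The V23 call of Mfng was also lost without any 1 of 7 other arrays, so that 8 of the 10 single omissions ended it, at adjusted p from 0.055 to 0.098. Without naive replicates 2 and 4 together it was lost too (adjusted p = 0.13). Quantile normalization and centring the arrays on their medians each ended the V23 call of Mfng as well. The fall of Lfng stayed called in all 10 single omissions.

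Adam10, the protease that makes the first cut of an activated receptor, had the smallest difference from naive in V23, and the smallest but that of Mfng in B1-8. It read 12.73, 12.59, 12.68 and 12.63 in naive cells, 12.33, 12.39 and 12.55 in B1-8 and 12.28, 12.39 and 12.42 in V23 (1428103_at). The highest GC array, B1-8 replicate 3, was 0.04 below the lowest naive array. The difference was −0.23 ± 0.09 in B1-8 (adjusted p = 0.076) and −0.30 ± 0.09 in V23 (adjusted p = 0.028). The B1-8 difference of Adam10 was called without B1-8 replicate 3 (adjusted p = 0.048), with quantile normalization (−0.38, adjusted p = 0.013) and with an intensity trend and robust moderation (adjusted p = 0.018). Quantile normalization gave −0.48 for Adam10 in V23 (adjusted p = 0.0035), while 4 of the 10 single omissions ended the V23 call of Adam10 (naive replicates 1 and 3, V23 replicates 1 and 2; adjusted p 0.063 to 0.087). It was also lost without naive replicates 2 and 4 together (adjusted p = 0.060) and with arrays centred on their medians (−0.17, adjusted p = 0.28).

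Another Adam10 probe set moved the opposite way. It read 8.70, 8.82, 8.97 and 9.05 in naive cells, 9.18, 9.33 and 9.58 in B1-8 and 9.32, 9.52 and 9.37 in V23 (1450105_at). All 6 GC arrays lay above all 4 naive arrays on it. It rose by 0.48 ± 0.14 in B1-8 (adjusted p = 0.034) and by 0.52 ± 0.14 in V23 (adjusted p = 0.020). These p-values are adjusted over 41235 probe sets, while those of 1428103_at above are adjusted over genes. In the fit over probe sets, 1428103_at was called in neither line (adjusted p = 0.13 in B1-8 and 0.055 in V23). No direction is therefore given for the gene Adam10 as a whole, only for each probe set. The remaining Adam10 sets, 1450104_at and 1460083_at, differed between the GC mean and naive by 0.62 and −0.52 with adjusted p of 0.60 and 0.59.

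The nuclear factors fell in both lines on the reported probe sets. Rbpj, the DNA-binding partner of all Notch receptors, read 10.43, 10.22, 10.32 and 10.50 in naive cells, 9.91, 9.87 and 9.99 in B1-8 and 9.63, 9.62 and 9.79 in V23 (1454896_at). As for Notch2, the groups formed 3 bands with V23 lowest. Rbpj fell by 0.44 ± 0.10 in B1-8 (adjusted p = 0.0072) and by 0.69 ± 0.10 in V23 (adjusted p = 5.9e-04). Maml1, the Mastermind coactivator, read 11.33, 11.25, 11.17 and 11.17 in naive cells, 10.90, 10.67 and 10.57 in B1-8 and 10.68, 10.47 and 10.24 in V23 (1426769_s_at, a set whose suffix marks probes shared by several transcripts). The GC lines overlapped each other and lay below naive. Maml1 fell by 0.51 ± 0.13 in B1-8 (adjusted p = 0.014) and by 0.77 ± 0.13 in V23 (adjusted p = 0.0015). Its B1-8 call was lost without B1-8 replicate 3 (adjusted p = 0.052) and without naive replicates 2 and 4 together (adjusted p = 0.061). Centring the arrays on their medians ended the B1-8 call of Maml1 as well.

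Rbpj and Maml1 have 2 further probe sets each, and these did not all fall. For Rbpj, 1448957_at differed by 0.04 ± 0.10 between the GC mean and naive (adjusted p = 0.80), and 1418114_at fell by 1.38 ± 0.45 (adjusted p = 0.041), with a call in V23 (−1.97, adjusted p = 0.020) and none in B1-8 (−0.78, adjusted p = 0.32). For Maml1, 1452188_at differed by −0.29 ± 0.12 (adjusted p = 0.081), and 1441697_at, a low set that read 2.19 to 5.48, rose by 1.83 ± 0.50 (adjusted p = 0.019). Over all 10 other probe sets of the 9 genes that passed the filter, 1 was called lower, 2 higher and 7 neither in the GC mean against naive, where 20.9% of all probe sets were called lower and 16.4% higher.

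**Figure D2:**
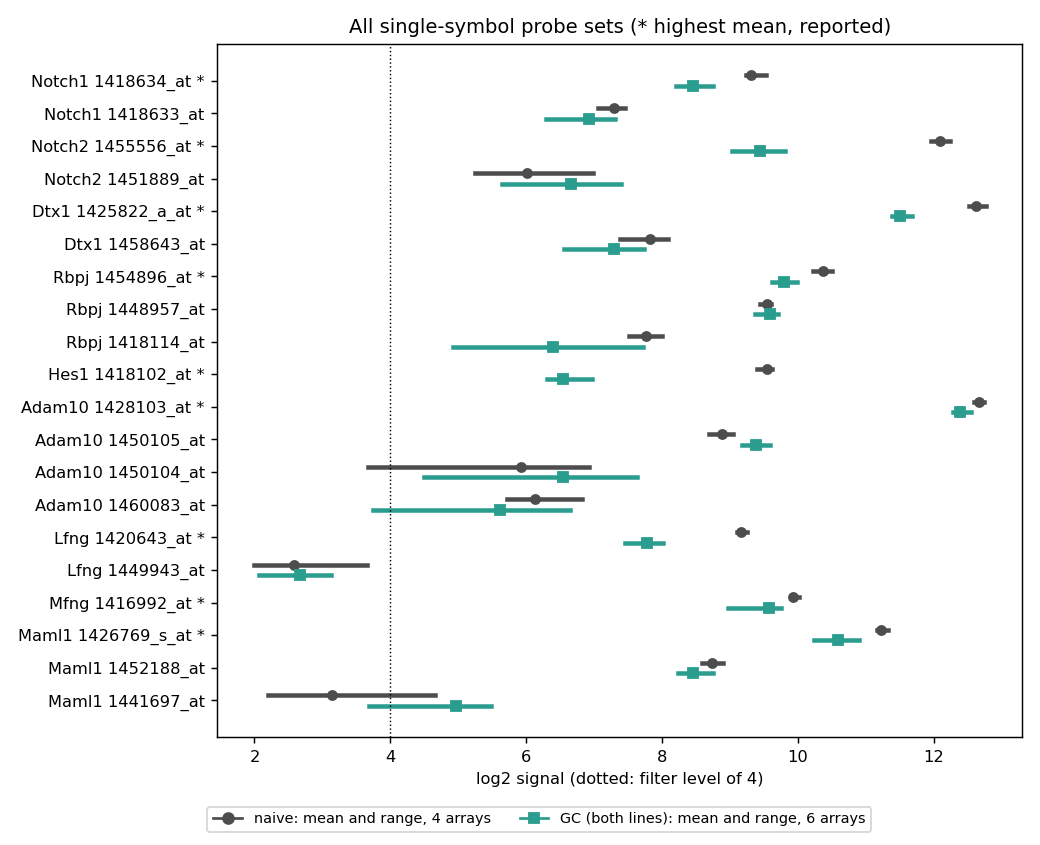
Log2 signal of every single-symbol probe set of the 9 genes, as mean and range over the 4 naive and the 6 GC arrays; the dotted line is the filter minimum of 4 and an asterisk marks the reported set. Naive and GC ranges are apart on the reported sets, overlap on the second Notch2 set, and are apart in the opposite direction on the Adam10 set 1450105_at.

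Of the 9 genes, Hes1 had the largest difference from naive in each line. Hes1, a repressor of transcription and a direct target of Notch signalling, read 9.62, 9.39, 9.58 and 9.58 in naive cells, 6.50, 6.97 and 6.57 in B1-8 and 6.31, 6.51 and 6.44 in V23 (1418102_at, its only probe set). The GC lines overlapped, since B1-8 replicate 1 lay just below V23 replicate 2. Hes1 fell by 2.86 ± 0.13 in B1-8 (7.28-fold, adjusted p = 4.5e-06) and by 3.13 ± 0.13 in V23 (8.75-fold, adjusted p = 2.3e-06). Dtx1, Deltex, a ubiquitin ligase that is induced by Notch and acts on it, read 12.56, 12.52, 12.77 and 12.62 in naive cells, 11.50, 11.68 and 11.39 in B1-8 and 11.60, 11.39 and 11.45 in V23 (1425822_a_at). The GC lines overlapped, with all 3 V23 arrays within the B1-8 range. Dtx1 fell by 1.09 ± 0.11 in B1-8 (2.13-fold, adjusted p = 1.2e-04) and by 1.14 ± 0.11 in V23 (2.20-fold, adjusted p = 7.0e-05). The other Dtx1 set, 1458643_at, differed by −0.53 ± 0.26 between the GC mean and naive (adjusted p = 0.15).

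**Figure D3:**
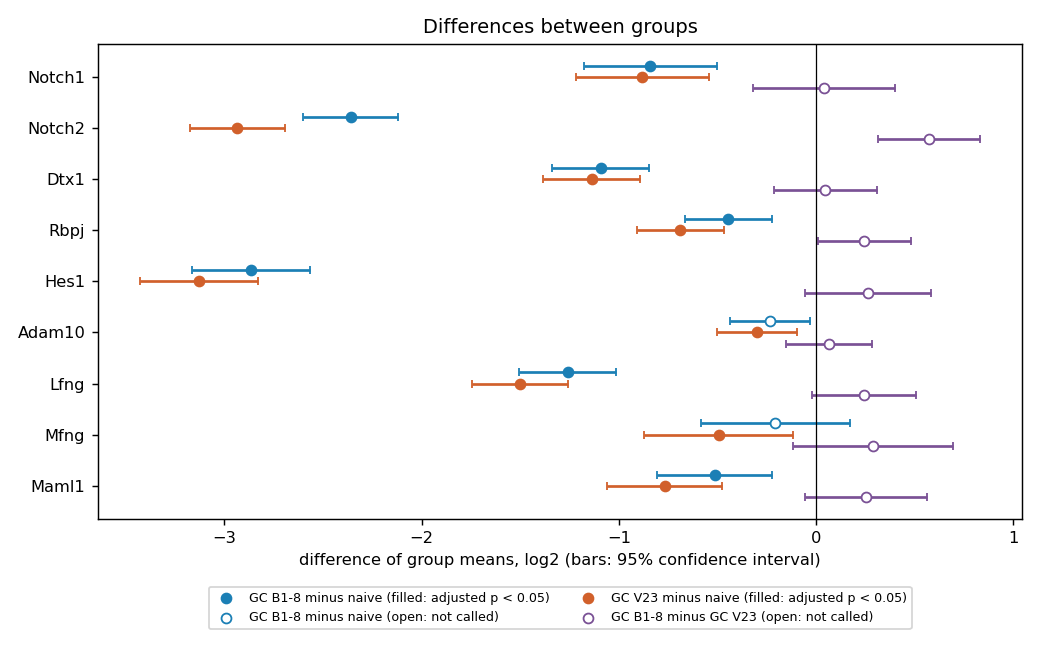
Log2 difference of each of the 9 genes for each GC line minus naive and for B1-8 minus V23; bars are 95% confidence intervals and filled points are called at an adjusted p below 0.05. All points against naive lie left of 0, those of Adam10 and Mfng nearest to it, and in the comparison of the lines Notch2, at 0.57, lies farthest from 0.

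The 2 GC lines were compared with each other, which also tests whether their differences from naive differ. None of the 9 genes was called by limma after adjustment, where 0.0233% of all genes were called (4 genes), and 2 of 9 had an unadjusted p under 0.05, Notch2 and Rbpj, beside 7.72% of all genes. The mean was higher in B1-8 than in V23 for 9 of 9 genes, beside 50.9% of all genes, with a median difference of 0.24, but Notch1 turned with quantile normalization, Notch1 and Dtx1 with median centring, and Notch2, Dtx1 and Maml1 with the mean of a gene's probe sets. Notch2 was higher in B1-8 by 0.57 ± 0.11 (95% confidence interval 0.32 to 0.83, unadjusted p = 8.2e-04, adjusted p = 0.25). Rbpj was higher in B1-8 by 0.24 ± 0.10 (0.01 to 0.48, adjusted p = 0.63). These were the 2 genes with all V23 arrays below all B1-8 arrays, as were 7.07% of all genes. The intervals were −0.32 to 0.40 for Notch1, −0.06 to 0.59 for Hes1, −0.22 to 0.31 for Dtx1, −0.02 to 0.51 for Lfng, −0.06 to 0.56 for Maml1, −0.15 to 0.28 for Adam10 and −0.12 to 0.69 for Mfng. These 7 intervals include 0, and a missed threshold does not show that the lines are alike.

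**Figure D4:**
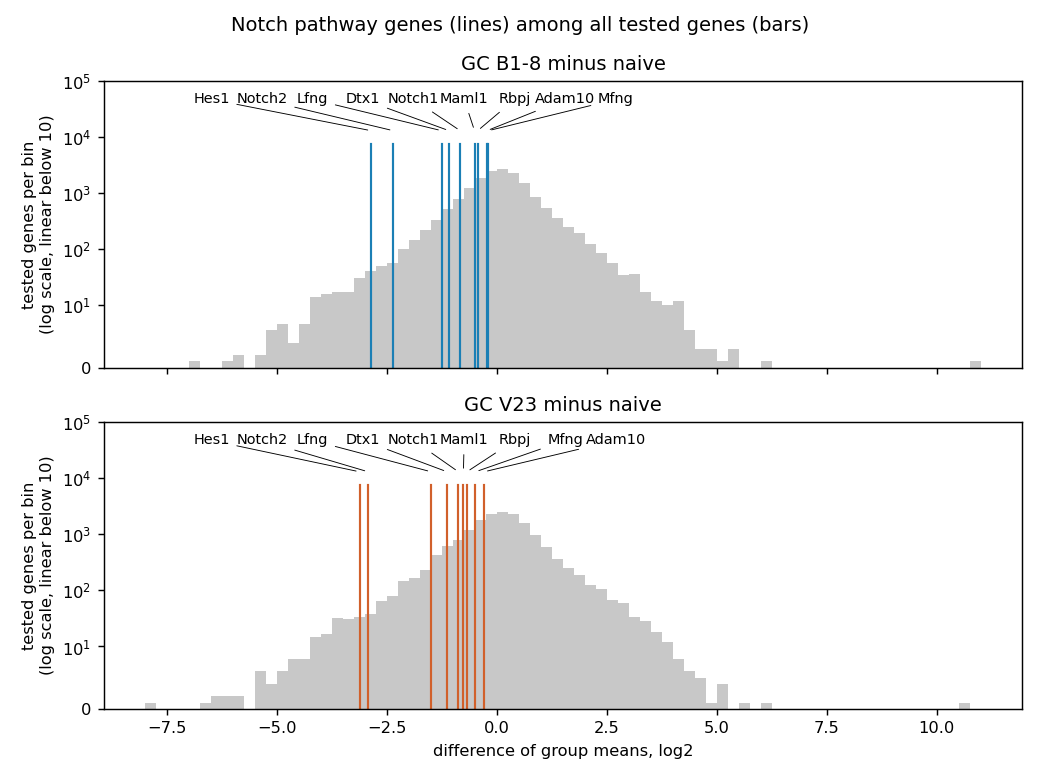
Histogram of the log2 difference of all 17204 tested genes in each line against naive (bins of 0.25, count axis linear near 0 and logarithmic above), with the 9 genes marked. The genes are spread over the lower side, with Hes1 and Notch2 in the left tail, and Adam10 and Mfng nearest to the centre.

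The other genes of the pathway, from lists by role, changed in both directions. Of 62 such genes, 57 were tested. In B1-8 against naive 16 fell, 5 rose and 36 did not pass, and in V23 18 fell, 8 rose and 31 did not pass, against the backgrounds given above. Their median difference was −0.19 in B1-8 and −0.25 in V23. None was called between the lines. The differences below are the GC mean minus naive, for genes called in both lines unless said otherwise; in the GC mean, 21.0% of all genes were called lower and 20.5% higher.

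Of the 4 receptors, the 2 described above fell. Notch3 (6.98 ± 0.30 in naive, 6.92 ± 0.51 in B1-8, 7.06 ± 0.46 in V23) differed by 0.01 ± 0.25 and Notch4 (6.55 ± 0.30, 6.52 ± 0.18 and 6.33 ± 0.40) by −0.12 ± 0.19, with adjusted p of 0.97 and 0.64. Of 8 ligands and Mind bomb ligases, 2 fell in B1-8 and 3 in V23. Mib2 fell by 1.05 ± 0.11 (adjusted p = 8.0e-05) and Mib1 by 0.94 ± 0.13 (adjusted p = 4.4e-04), or −0.62 with the mean of the Mib1 sets. The other Mib1 sets were not called, at 0.01 (1451818_at, adjusted p = 0.96) and −0.94 (1433853_at, adjusted p = 0.071). Mind bomb ligases act in the cell that presents a ligand. All 5 glycosyltransferases fell in V23 and 4 in B1-8, where Mfng was the exception. Poglut1, which adds glucose to the receptor, fell by 0.98 ± 0.07 (adjusted p = 1.25e-05). Radical fringe, Rfng, fell by 0.68 ± 0.12 (adjusted p = 0.0020), while its other set differed by −0.29 (adjusted p = 0.24). Pofut1, which adds the fucose that fringe enzymes extend, fell by 0.42 ± 0.08 (adjusted p = 0.0027), though the mean of its probe sets gave 0.19.

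Of 8 tested proteases, on their reported probe sets, 2 were called lower in B1-8, and in V23 3 were called lower and 1 higher. The third one in V23 is the Adam10 set 1428103_at, which another Adam10 set opposes as given above. Furin, which cleaves the receptor on its way to the surface, fell by 0.59 ± 0.08 (adjusted p = 4.0e-04). Ncstn, a subunit of γ-secretase, fell by 0.47 ± 0.07 (adjusted p = 0.0010), and by 1.01 with the mean of the Ncstn sets. That mean includes 1444532_at, with a mean signal of 6.34, which differed by −1.56 and was not called (adjusted p = 0.065). Of 8 nuclear activators, 3 fell in B1-8, and 4 fell and 1 rose in V23. The differences of these 8 genes ranged from −0.86 to 0.92 in B1-8 and from −0.89 to 1.50 in V23. Kat2a, a histone acetyltransferase, fell by 0.87 ± 0.09 on its reported set (adjusted p = 9.2e-05). Its other sets differed by 0.45 (1422971_at, adjusted p = 0.17) and −0.29 (1422972_s_at, adjusted p = 0.0498), and the mean of the Kat2a sets gave −0.24 and no call (adjusted p = 0.11). Of 9 corepressor genes, 1 fell and 2 rose in each line. L3mbtl3, a partner of RBPJ that acts with it as a repressor, read 11.04, 10.70, 10.67 and 10.88 in naive cells, 8.62, 8.97 and 8.81 in B1-8 and 8.81, 8.71 and 8.54 in V23. It fell by 2.08 ± 0.11 (adjusted p = 3.9e-06), with naive and GC arrays far apart. Hdac1, a histone deacetylase, rose by 0.72 ± 0.10 (adjusted p = 5.0e-04) and Ctbp1, a corepressor, by 0.28 ± 0.06 (adjusted p = 0.0064). The RBPJ partner Spen, which mediates repression, differed by −0.02 ± 0.11 (adjusted p = 0.91).

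Of 12 genes of endocytosis and turnover, 4 fell in each line, and 1 rose in B1-8 and 2 in V23. Fbxw7, the ubiquitin ligase subunit that marks the Notch intracellular domain for degradation, read 10.15, 10.21, 10.07 and 10.26 in naive cells, 11.71, 11.56 and 11.58 in B1-8 and 11.67, 11.46 and 11.58 in V23. All GC arrays lay above all naive arrays, and Fbxw7 rose by 1.42 ± 0.08 (adjusted p = 3.9e-06). Dtx4, a relative of Deltex, fell by 0.81 ± 0.13 (adjusted p = 0.0013). The ubiquitin ligase Nedd4 fell by 0.61 ± 0.11 (adjusted p = 0.0022). Its other sets differed by −0.21 (1421955_a_at, adjusted p = 0.34) and −0.71 (1450431_a_at, adjusted p = 0.0015). Numb, an endocytic inhibitor of Notch, fell by 0.58 ± 0.09 (adjusted p = 8.2e-04), and by 1.02 with the mean of the Numb sets.

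Of 12 genes listed as targets, 5 fell and 2 rose in each line. Those that fell were Hes1, Dtx1, Bcl3, Cr2 and Myc. Bcl3, a regulator of NF-κB, fell by 1.15 ± 0.12 (adjusted p = 8.7e-05) and Myc, a growth regulator, by 0.70 ± 0.15 (adjusted p = 0.0051). Cr2, complement receptor CD21, which marginal zone cells carry at a high level, read 13.86, 13.96, 14.02 and 14.00 in naive cells, 13.03, 13.05 and 13.05 in B1-8 and 13.27, 12.91 and 13.06 in V23. It fell by 0.90 ± 0.08 (adjusted p = 5.3e-05), without overlap, and its promoter window is printed above as well.

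The targets that rose were Hey1 and Hes5, basic helix-loop-helix repressors of the family of Hes1. Hey1 read 5.96, 6.07, 4.61 and 6.23 in naive cells, 7.50, 7.34 and 6.48 in B1-8 and 6.82, 7.71 and 7.43 in V23. Every GC array lay above every naive array, at low signals, and Hey1 rose by 1.50 ± 0.37 (adjusted p = 0.011). Hes5 read 7.75, 7.87, 8.06 and 8.07 in naive cells, 9.10, 8.19 and 8.62 in B1-8 and 9.02, 8.61 and 8.57 in V23, and rose by 0.74 ± 0.18 (adjusted p = 0.011). Its reported set, 1456010_x_at, can share sequence with other genes, and the other Hes5 set had a difference of 0.61 (adjusted p = 0.034). The Hes5 call was lost without naive replicates 2 and 4 together (adjusted p = 0.060). Nrarp, a feedback inhibitor that Notch induces, differed by −0.22 ± 0.13 (adjusted p = 0.20), and was called lower without naive replicate 4 (−0.33, adjusted p = 0.044).

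**Figure D5:**
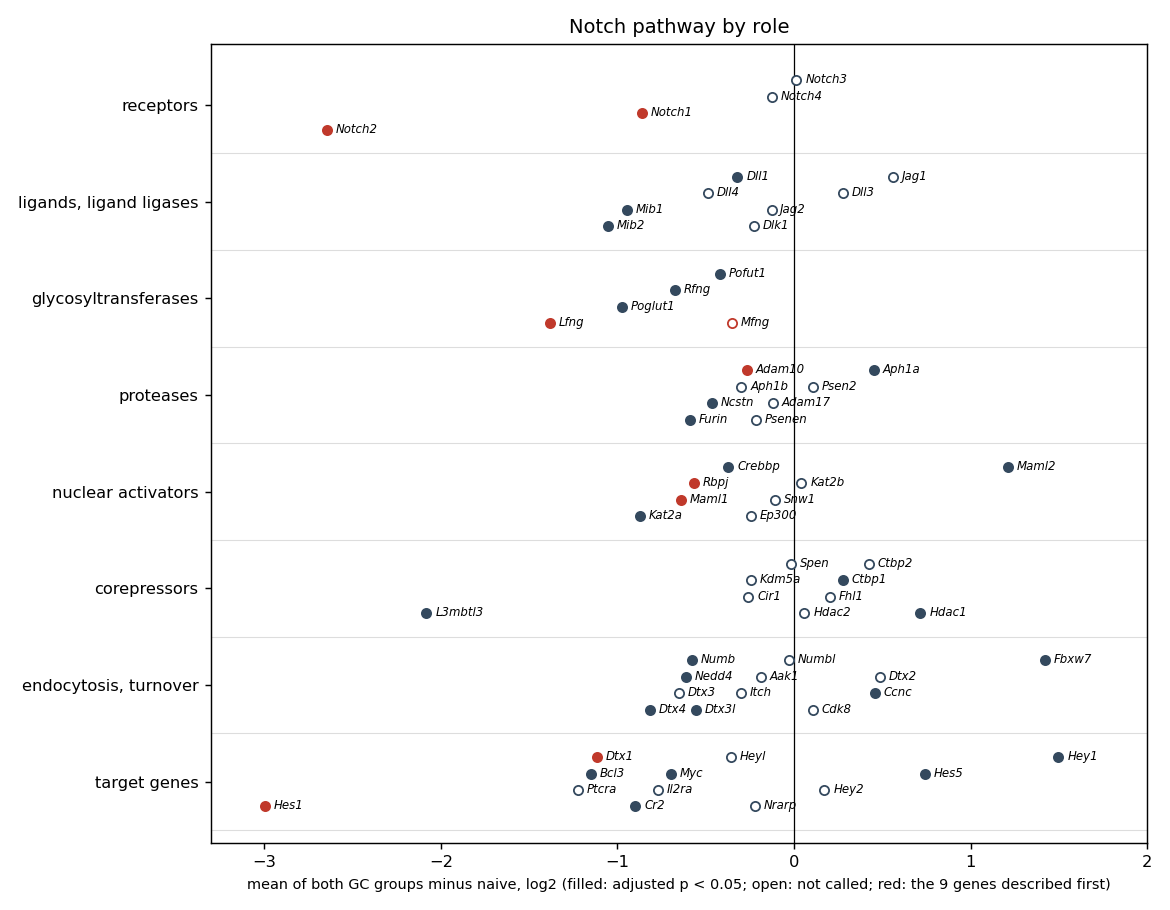
Log2 difference between the mean of both GC groups and naive for each tested pathway gene, grouped by role; filled points are called at an adjusted p below 0.05 and red marks the 9 genes. The glycosyltransferases lie left of 0 on these probe sets (Pofut1 turns with the mean of its sets), and targets and turnover genes lie on both sides, with Hey1 at 1.50 and Fbxw7 at 1.42 on the right.

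Markers of marginal zone B cells moved with these genes. Of 9 listed, 8 were tested, and 7 were called lower in B1-8 and 8 in V23, where 17.3% and 19.7% of all genes were. The list holds Dtx1 and Cr2 themselves. Their summed unlogged signal was 41032 to 45049 on the naive arrays, 18605 to 19393 on the B1-8 arrays and 16556 to 20380 on the V23 arrays. Cd1d1, a lipid-presenting molecule at a high level on marginal zone cells, fell by 5.17 ± 0.14 in the GC mean, from 11.95 in naive cells to 7.04 and 6.51. The tetraspanin Cd9 fell by 2.95 ± 0.35. The share of marginal zone cells in the naive sort was not measured, and its part in the lower Notch2, Hes1 and Dtx1 levels was not tested.

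Other marker lists also moved between the groups. Over all genes, 17.3% were called lower and 16.4% higher in B1-8, and 19.7% and 18.2% in V23. B cell markers summed to 83016 to 94241 in naive cells, 74790 to 86212 in B1-8 and 65166 to 79235 in V23 (6 of 7 tested, 1 called lower in B1-8 and 2 in V23). GC B cell markers summed to 13102 to 16016, 31611 to 32339 and 29939 to 32027 (6 of 7 tested, 5 called higher in each line). Neutrophil markers summed to 2702 to 13941, 59799 to 61823 and 37919 to 56367, with 8 of 8 called higher in each line. T cell markers, of interest because T cells express Notch1, summed to 2026 to 3184, 1812 to 2133 and 1426 to 1884 (11 of 12 tested, 0 called in B1-8, 3 lower in V23). Their part in the results was not tested. The 3′ minus 5′ difference of the Actb control probe sets, a measure of RNA quality, was 1.46 ± 0.17 in naive cells, 0.98 ± 0.20 in B1-8 and 0.78 ± 0.08 in V23. GC minus naive was −0.59, with an exact two-sided permutation p of 0.0048, the smallest that the 210 splits of the arrays allow (0.0095 after Benjamini-Hochberg adjustment over 2 controls). Its part in the differences between probe sets of a gene was not tested.

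The genes whose pattern over the 10 arrays was most like that of Notch2, by Pearson correlation, were Arap2, Kdm7a and Cdkn1b, each at r = 0.998. For Hes1 they were Ly6d (0.998), Map3k5 (0.997) and Sub1 (0.996), and for Dtx1 A930005H10Rik (0.996), Irgm2 (0.993) and Zfp30 (0.992). The arrays share the step from naive to GC cells, and 1003 genes exceeded 0.95 with Notch2, 881 with Hes1 and 653 with Dtx1.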

How the data were processed

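Samples were grouped by GEO's labels into naive, GC B1-8 and GC V23. The authors deposited 1 log2 signal per probe set and array. The submitters' processing notes name GCRMA, with no version given in the sources used here. However, each array had an unlogged mean of 500 once 2% was trimmed from either end and values reached −4.29, a form that MAS5-scaled signals have, so the method stays unsettled. The log2 values were used as deposited. Of 45101 probe sets, 34958 have 1 symbol, 932 several and 9211 none. Differences were fitted with limma 3.58.1 in R 4.3.3: 1 model of 3 group means over 10 arrays, eBayes without trend, two-sided, with 7 residual degrees of freedom and a prior of 1.46. Probe sets were fitted the same way over all that passed the filter. The script was tested on simulated data with 200 of 17204 genes changed 2-fold, a smaller share than was called against naive. It recovered 45.5% of them in B1-8 against naive, 54.5% in V23 against naive and 41% between the lines. Of the genes called, 5.21%, 11.4% and 6.82% were false. Arrays give no counts, and their number limits the precision.

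The genes and lists were chosen with earlier results of these data known. Named besides the 9 genes were, per role list, up to 3 genes in each direction called in both lines with the largest differences, plus Notch3, Notch4, Spen, Nrarp, Cr2 and Hes5, and the 3 most similar genes for Notch2, Dtx1 and Hes1. Listed pathway genes that were not tested are not reported here. Marker lists for dendritic, macrophage and stromal cells summed to 697 to 1225, 1365 to 3300 and 1705 to 2369 in naive cells, 1350 to 1440, 1269 to 1475 and 996 to 1434 in B1-8, and 1151 to 1504, 932 to 1024 and 1086 to 1183 in V23. Alternatives varied the filter, the probe set that stands for a gene, normalization, a floor, moderation, array weights, the groups fitted, the replicate number as a block, and omitted arrays. Figures were drawn with matplotlib 3.10.9.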

Additional observations from a re-analysis of the deposited data

Results flagged for a closer look

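In 5 of the 44 sets of 4 naive arrays checked, 1 array lay far from the other 3, by a gap that is a larger share of the range than Dixon's critical value at the 95% level. Chance alone gives about 1 in 20. Notch1 (1418634_at) was high in naive replicate 4, at 9.53 against 9.23 to 9.25, a gap of 0.947 of the range. Mfng (1416992_at) was high in naive replicate 1, at 10.01, with a gap of 0.873. Hes1 (1418102_at) was low in naive replicate 2, at 9.39, with a gap of 0.835. The low Adam10 set 1450104_at was lowest in naive replicate 1, at 3.67, also with a gap of 0.835. Hey1 (1415999_at) was low in naive replicate 3, at 4.61, with a gap of 0.833. Groups of 3 GC arrays were not checked.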

How the results depend on the processing

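Hes1, Notch2 and Dtx1 kept their direction and call against naive in each of the 62 refits (both lines and the GC mean, swapped probe sets apart), though the mean of its probe sets took Notch2 from −2.36 to −1.07 in B1-8 and from −2.93 to −0.92 in V23. Under that mean Lfng moved to −0.57 and −0.73. Notch1, Rbpj and Lfng lost 1 call each, in B1-8 with that mean (adjusted p 0.060, 0.22 and 0.086). With that mean, 3 of the 9 genes were called lower in B1-8, and differences turned for Adam10 (0.21 in B1-8, 0.082 in the GC mean), Maml1 (0.26 in B1-8, 0.34 in V23, 0.30 in the GC mean, −0.080 between lines), Notch2 and Dtx1 between lines (−0.15 and −0.011), Pofut1 (0.19) and Notch3 (−0.34). The swapped-in sets turned Notch2 1451889_at (0.22 in B1-8, 1.09 in V23, −0.88 between lines, 0.66 in the GC mean), Dtx1 1458643_at (−0.069 between lines), Rbpj 1448957_at (0.10 in B1-8, 0.037 in the GC mean), Adam10 1450105_at (0.48 in B1-8, 0.52 in V23, −0.045 between lines, 0.50 in the GC mean), Adam10 1450104_at (1.10, 0.13 and 0.62 in B1-8, V23 and the GC mean) and Maml1 1441697_at (1.48 in B1-8, 2.18 in V23, −0.70 between lines, 1.83 in the GC mean). The cause was not tested.

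Quantile normalization turned Notch1 between lines (−0.039) and Spen (0.13), and ended the call of Ctbp1 (adjusted p = 0.12). Median centring turned Notch1 and Dtx1 between lines (−0.020 and −0.015) and Spen (0.080), moved the median of all genes by 0.07 in B1-8 and 0.13 in V23, and took the share of lower among all called genes from 51.2% to 44.2% and from 52.0% to 39.9%. With only the 2 groups compared in the fit, 3 other pathway genes were called higher in B1-8. When arrays were left out singly, the 9 genes gave 7 lower in B1-8 throughout, 7 to 8 in V23, 7 to 9 in the GC mean and 0 between lines, and other pathway genes called higher in B1-8 ranged from 2 to 6. Differences then ranged from −0.074 to 0.20 for Notch1 and −0.032 to 0.11 for Dtx1 between lines, −0.12 to 0.16 for Notch3 and −0.063 to 0.037 for Spen. Without naive replicates 2 and 4 together, 6 of the 9 genes were called lower in B1-8 and 7 in V23. Gapdh in place of Actb gave −0.36 (exact permutation p = 0.014).

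Same-numbered samples showed little shared deviation (r −0.01 to 0.07 over 9 pairs, against −0.05 to 0.04 over 18 pairs of unlike number). The highest r, 0.07, was that of a same-numbered pair, replicate 1 of GC B1-8 and of GC V23. Not every sample correlated best with its own number. Pairing by number was therefore not shown, but so few pairs cannot settle whether it is absent. With the replicate block, 7 of the 9 genes were called lower in each line and 5064 genes in all were called in B1-8 and 5825 in V23, against 5796 and 6513 without it. Low signals limit the second Notch2 set, Hey1 and the low Adam10 and Maml1 sets. Hes1 in GC cells also read low, at 6.31 to 6.97, with an SD of 0.26 in B1-8 and 0.10 in V23. The residual spread was compared only between genes with a mean below 6 and those above 10.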
